A study of Mus musculus with 59 samples.

Results

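The genes described here are 7 that have been grouped as genes differing between substrains of the C57BL/6 mouse: Wdfy1, Ide, Fgfbp3, Entpd4b, Entpd4, Crb1 and Cyfip2. They were chosen by symbol, for separate levels of their counts among these libraries or for a known substrain difference, out of 57180 gene rows of a raw count table. Each of the 7 symbols stands on 1 row, and 6 of the 7 had enough counts to be tested in both tissues, as did 19463 genes in all. The study measured polyadenylated RNA of 2 brain regions, cortex and hippocampus, in 30 male mice, giving 59 libraries in 4 genotypes by label. The labels give the wild-type mice as +/+ for both Mrpl40 and Slc25a1. They give the Slc25a1 het (heterozygous) mice as -/+ for Slc25a1 and +/+ for Mrpl40. The Mrpl40 het mice are given as -/+ for Mrpl40 and +/+ for Slc25a1, and the double het mice as -/+ for both. Mrpl40 encodes a protein of the mitochondrial ribosome and Slc25a1 the carrier that takes citrate across the inner mitochondrial membrane. Cortex had 9 libraries of wild type and 7 of each other genotype, and hippocampus had 8 and 7. For the strain, the age of the mice and the kind of allele, the sources used here give nothing.

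As background, C57BL/6 is an inbred line whose colonies have been kept apart for long enough that mutations and copy-number changes have become fixed in some of them and still segregate in others. C57BL/6J mice carry a deletion in Nnt, C57BL/6N mice carry the rd8 frameshift in Crb1 and a missense change in Cyfip2, and a duplicated segment that holds Ide and Fgfbp3 is known to be present in some C57BL/6J mice and not in others. A gene whose dosage or regulatory sequence differs in this way can stand at separate levels among animals of 1 study. Gene counts do not read coding changes, so the known alleles of Crb1 and Cyfip2 could not be looked at here.

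Entpd4 and Entpd4b, 2 copies of a gene for a Golgi and lysosomal enzyme that removes phosphate from nucleotides, lie close together on chromosome 14. Their first 120 coding bases are shown because the annotated transcripts of the 2 copies could not be told apart by sequence. The start codon is in capitals, and the bases are positions 217 to 336 of the 3589-base transcripts ENSMUST00000184973 and ENSMUST00000185072 of GENCODE vM21 (GRCm38).
Entpd4: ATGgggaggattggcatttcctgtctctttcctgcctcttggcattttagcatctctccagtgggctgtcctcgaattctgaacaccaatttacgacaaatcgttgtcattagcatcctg
Entpd4b: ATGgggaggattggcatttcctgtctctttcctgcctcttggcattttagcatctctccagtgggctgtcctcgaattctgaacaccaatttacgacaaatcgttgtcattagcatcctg
The sequences are the same, and so are 5 pairs of transcripts of the 2 genes along their whole length. Of the 8304 distinct stretches of 150 bases (the read length) in the annotated transcripts of Entpd4b, 100% also occur in Entpd4. For Wdfy1, Ide, Fgfbp3, Crb1 and Cyfip2, 0% of such stretches occur in the annotated transcripts of another gene on either strand.

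Ide and Fgfbp3 lie on chromosome 19 in 1 neighbourhood with Btaf1, a gene that was not among the 7 and whose level tracked theirs. The 250 bases before their RefSeq starts (GRCm38.p6) are shown because the 3 genes varied together. Capitals mark matches, on either strand, to the TATA box (searched as TATAAA), the CCAAT box (searched as CCAAT), the GC box (searched as GGGCGG) or the E box (searched as CACGTG), which do not overlap each other here.
Ide, chr19:37334545-37334794, minus strand: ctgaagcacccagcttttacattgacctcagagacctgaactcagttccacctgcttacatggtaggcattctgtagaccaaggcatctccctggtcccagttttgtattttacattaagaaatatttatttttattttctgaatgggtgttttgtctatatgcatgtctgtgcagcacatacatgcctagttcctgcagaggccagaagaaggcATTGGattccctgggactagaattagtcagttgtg
Fgfbp3, chr19:36919600-36919849, minus strand: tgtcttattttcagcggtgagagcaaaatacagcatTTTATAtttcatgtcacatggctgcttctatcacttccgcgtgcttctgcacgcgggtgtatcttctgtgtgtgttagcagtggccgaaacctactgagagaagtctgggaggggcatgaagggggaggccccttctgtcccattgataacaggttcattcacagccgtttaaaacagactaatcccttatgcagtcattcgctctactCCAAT
Btaf1, chr19:36925829-36926078, plus strand: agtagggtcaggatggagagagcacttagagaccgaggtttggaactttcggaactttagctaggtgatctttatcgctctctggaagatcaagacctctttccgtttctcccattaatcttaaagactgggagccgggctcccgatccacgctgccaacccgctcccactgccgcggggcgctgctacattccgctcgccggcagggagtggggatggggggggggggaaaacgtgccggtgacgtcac
The Ide window holds 1 match to CCAAT, the Fgfbp3 window 1 match to CCAAT and 1 to TATAAA, and the Btaf1 window none of the 4 motifs. Among 32851 windows of this length, 33.8% hold the CCAAT box, 12.4% the TATA box, 32.7% the GC box and 6.02% the E box. The Ide window holds 0 CG pairs, the Fgfbp3 window 8 and the Btaf1 window 17, beside a median of 6 over all windows. The RefSeq start of Ide was not matched to a GENCODE vM21 transcript of Ide, unlike those of Fgfbp3 and Btaf1, so its window may not lie at the start that these tissues use.

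Library totals ranged from 21443017 to 32120906 counts in cortex and from 21467790 to 30347791 in hippocampus. Slc25a1 stood at 2 levels, up to 13 CPM (counts scaled to 1000000 per library) in 12 cortex libraries and at least 20.8 in the other 18, and in 6 of 30 animals the level went against the label in both tissues: 2 labelled wild type, 2 labelled Slc25a1 het and 2 labelled double het. The genotypes below are therefore those of the labels. Mrpl40 did not separate its labelled genotypes, with cortex medians of 17 CPM in wild type and 17.4 in Mrpl40 het. Markers of the labelled tissues were detected in full: the 6 cortex markers summed to 747 to 1050 CPM in cortex and 167 to 268 in hippocampus, and the 6 hippocampus markers to 634 to 1200 in hippocampus and 144 to 215 in cortex. In 1 hippocampus library, labelled Slc25a1 het, the 6 cerebellar markers summed to 439 CPM, beside a median of 3.79. The levels described next were found without it too, and without the 6 animals all remaining animals were still on the same side in both tissues for Wdfy1 and Ide.

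Separate levels were looked for in the same way in every gene: as a gap of at least 0.25 log2 between neighbouring libraries, sorted by CPM, with 3 or more libraries on each side. Such a gap was found in 5.82% of 20394 genes in cortex and 7.06% of 20162 in hippocampus. It was found in both tissues in 255 of 19463 genes (1.31%), and in 12 of these (0.0617%) every one of the 29 animals was on the same side in both. Wdfy1, Ide and Entpd4b are 3 of those 12. The others were Gm27177, the targeted gene Slc25a1, and Capn11, G530011O06Rik, Gm15446, Lpcat1, Mid1, Ndn and Sra1. Since the 7 genes were chosen with these levels known, the counts are a description. G530011O06Rik and Mid1 had the same 6 low animals as each other, and no gene of the 12 other than Gm27177 had the low animals of Wdfy1, Ide or Entpd4b.

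Wdfy1 encodes a WD-repeat and FYVE-domain protein that sits on early endosomes and takes part in signalling from Toll-like receptors. Its counts, from 519 to 1260 per library, fell into 2 levels in each tissue. In cortex 20 libraries stood between 24.3 and 29.9 CPM (median 26.7) and 10 between 38.6 and 45.5 (median 43.1), a ratio of medians of 1.61. In hippocampus 19 libraries stood between 22.1 and 28.1 CPM (median 25.2) and 10 between 37.1 and 40.4 (median 38.7), a ratio of 1.54. That no library lay between the levels follows from how a level was defined. In cortex the exact Poisson 95% interval was 28 to 31.8 CPM for the highest library of the lower level. It was 36.2 to 41.1 for the lowest library of the upper level. At such counts the gap asked for settles beforehand that these intervals do not overlap. These intervals cover counting error only.

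The same 10 animals stood at the upper Wdfy1 level in both tissues, and all 29 animals with both tissues were on the same side. By label these were animals 2, 3 and 4 (wild type), 15 (Slc25a1 het), 19, 20, 22 and 24 (Mrpl40 het) and 26 and 29 (double het). Each labelled genotype thus held both levels. In cortex Wdfy1 ranged from 25.7 CPM through a median of 28.9 to 43.2 in wild type and from 24.5 through 26.6 to 45.3 in Slc25a1 het. It ranged from 25.5 through 38.7 to 45.5 in Mrpl40 het and from 24.3 through 26.7 to 44.5 in double het. The Mrpl40 het median fell in the upper level, with 4 of 7 libraries there, and the other 3 medians in the lower. The hippocampus ranges were 22.1 to 40.3 (median 26.4) in wild type, 25.2 to 40.3 (median 37.1) in Mrpl40 het, 23.4 to 40.4 (median 26.4) in Slc25a1 het and 23.1 to 39.8 (median 25.7) in double het. Labelled genotype accounted for 9.67% of the variance of log2 CPM in cortex and 7.53% in hippocampus, beside medians of 10.2% and 11.6% over all tested genes. For Ide the shares were 10% and 20.7%, for Entpd4b 19.8% and 25.8%, for Fgfbp3 12.2% and 16.7%, for Crb1 5.17% and 19.7%, and for Cyfip2 6.91% and 23.7%.

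The tissues were also compared within a level. Across the 19 animals of the lower Wdfy1 level the Pearson r between cortex and hippocampus was -0.00419, and across the 10 of the upper level it was 0.433. These values describe animals that share a tissue pair and a scaling, and carry no test.

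Ide encodes insulin-degrading enzyme, a metalloprotease that cleaves insulin and amyloid beta. It also stood at 2 levels. In cortex 13 libraries lay between 43.3 and 52.8 CPM (median 49.2) and 17 between 71.6 and 82.1 (median 75.8), a ratio of 1.54. In hippocampus 13 lay between 44.8 and 54.1 CPM (median 48.6) and 16 between 71.5 and 84 (median 73.6), a ratio of 1.51. The intervals of the libraries on either side of the gap did not overlap, at 50.4 to 55.4 and 68.6 to 74.7 CPM in cortex and 51.3 to 56.9 and 68.5 to 74.6 in hippocampus. As for Wdfy1, the gap asked for settles this beforehand at such counts. All 29 animals were again on the same side in both tissues.

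The lower Ide level held 6 of 9 wild-type cortex libraries, 3 of 7 Mrpl40 het, 2 of 7 Slc25a1 het and 2 of 7 double het libraries. In cortex Ide ranged from 45.6 CPM through a median of 50.9 to 75.8 in wild type and from 43.3 through 73.6 to 81.3 in Slc25a1 het. The range was 48.5 through 72.4 to 79.4 in Mrpl40 het and 46.9 through 73.6 to 82.1 in double het. The wild-type median was thus in the lower level and the medians of the other 3 genotypes in the upper. In hippocampus wild type ranged from 45.4 CPM through 48.3 to 77.7, Mrpl40 het from 44.8 through 72 to 84, Slc25a1 het from 50.9 through 73.8 to 77.4 and double het from 52.9 through 73 to 80.1. Here too wild type had the lowest median.

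**Figure D1:**
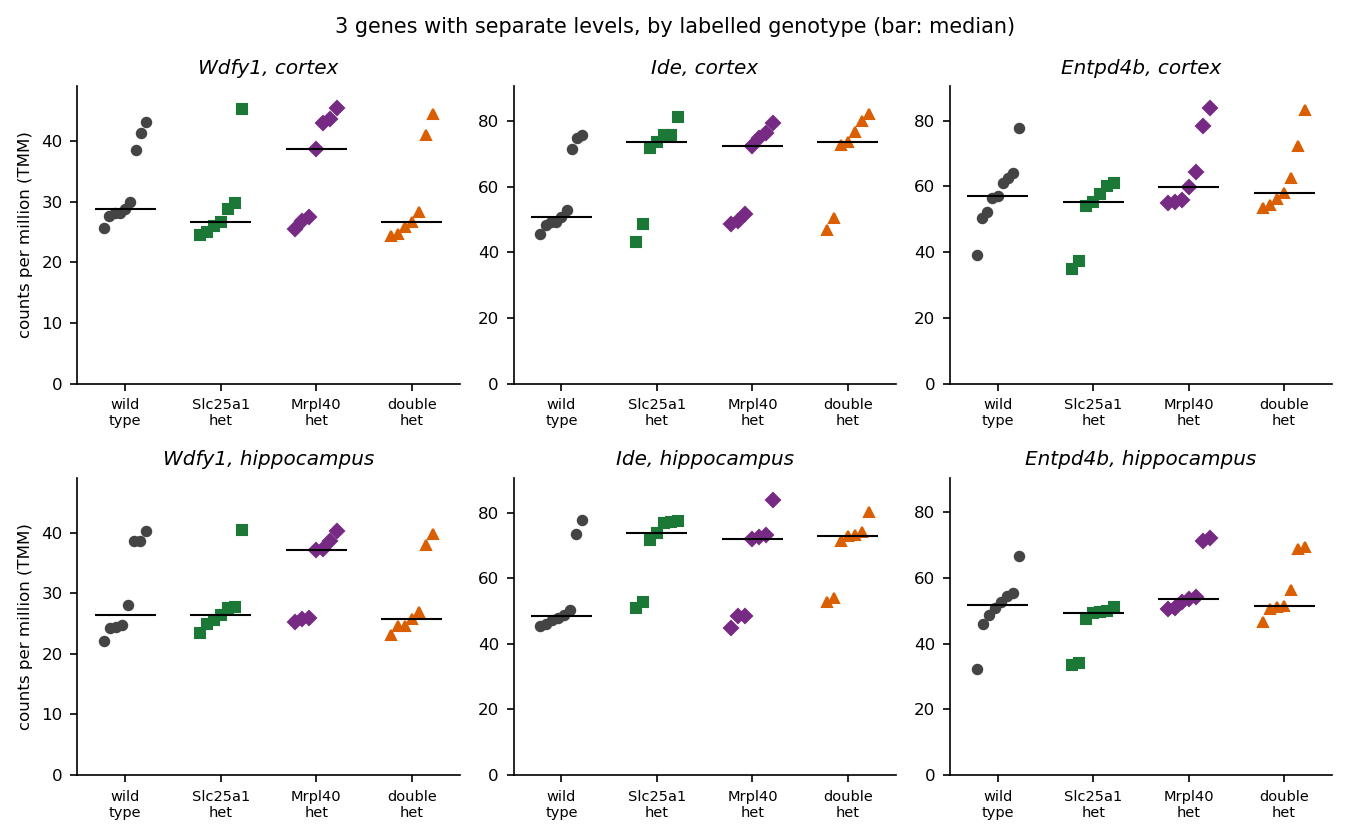
CPM (vertical axis, from 0) of Wdfy1, Ide and Entpd4b in every library of cortex (top) and hippocampus (bottom), by labelled genotype; points are libraries and bars are medians. For Wdfy1 and Ide each genotype has libraries at both levels, and for Entpd4b the 3 low cortex libraries, at 34.7 to 39.1 CPM, are 1 wild type and 2 Slc25a1 het.

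The levels of Wdfy1 and of Ide combined in all 4 ways. By cortex values, 8 of the 30 animals were low for both, 5 were high for both, 12 were low for Wdfy1 and high for Ide, and 5 were the reverse. The 2 genes lie on different chromosomes, 1 and 19.

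Entpd4b (ENSMUSG00000022066) carried nearly all counts of the duplicated enzyme gene, and it showed a group of 3 low animals. In cortex they lay between 34.7 and 39.1 CPM (median 37.3) and the other 27 libraries between 50.5 and 83.8 (median 57.9). In hippocampus they lay between 32.1 and 34.1 CPM (median 33.5) and the other 26 between 45.9 and 72.2 (median 51.2). The low animals were the same in both tissues: 7, labelled wild type, and 13 and 14, labelled Slc25a1 het. Of these, 7 and 13 are among the 6 animals whose Slc25a1 level went against the label, and without those 6 too few low libraries were left for a separate level.

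The 5 highest Entpd4b animals were also the same in both tissues: 4, 18, 20, 29 and 30. They lay at 72.3 to 83.8 CPM in cortex, above a middle group of 22 libraries at 50.5 to 64.4, and at 66.6 to 72.2 in hippocampus, above 21 libraries at 45.9 to 56.2. The gaps below them, 0.17 log2 in cortex and 0.24 in hippocampus, were under the 0.25 log2 asked of a separate level. By genotype the cortex medians were 57 CPM in wild type (39.1 to 77.7), 59.7 in Mrpl40 het (54.9 to 83.8), 55.3 in Slc25a1 het (34.7 to 61) and 57.9 in double het (53.5 to 83.3). In hippocampus they were 51.7 (32.1 to 66.6), 53.5 (50.5 to 72.2), 49.4 (33.5 to 51) and 51.4 (46.5 to 69.4). All genotypes overlapped in each tissue. Among the 26 animals above the low group, r between the tissues was 0.816, with the 5 high animals included.

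Gm27177, annotated antisense beside Entpd4b, was the gene most like it, with r = 0.926 in cortex and 0.913 in hippocampus over 29 animals. It had the same 3 lowest and the same 5 highest animals in both tissues. In cortex its 3 lowest libraries lay at 2.17 to 3.01 CPM, 22 at 9.5 to 13.1 and 5 at 17.2 to 20.9, so that here all 3 groups stood apart. In hippocampus they lay at 1.76 to 2.45, 5.46 to 8.38 and 10.4 to 11.5 CPM. The ratio of medians between the animals outside and inside the low group was 4.49 in cortex and 3.36 in hippocampus, larger than the 1.55 and 1.53 of Entpd4b. Of the 150-base stretches of Gm27177, 22.6% lie on the opposite strand of other annotated genes, Entpd4 and Entpd4b among them, and 100% occur in Gm16867. The kit marks strand, but the sources used here do not say whether the counting used it, and reads of Entpd4b and of its antisense partners may not have been kept apart.

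**Figure D2:**
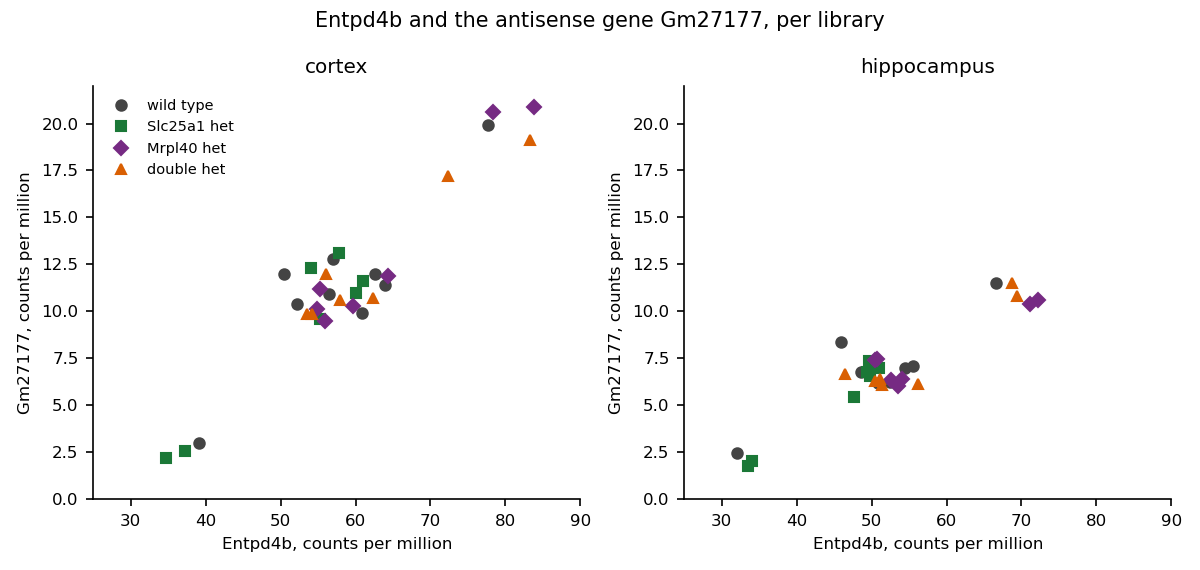
CPM of Entpd4b (horizontal) against Gm27177 (vertical) in each library of cortex (left) and hippocampus (right), with labelled genotype by colour and shape. In cortex the points form 3 groups, with 3 libraries at 2.17 to 3.01 CPM of Gm27177, 22 at 9.5 to 13.1 and 5 at 17.2 to 20.9.

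Entpd4 (ENSMUSG00000095463) was listed with 21 counts in all 30 cortex libraries together and 11 in the 29 hippocampus libraries, and did not pass the filter on low counts. It was at 0 in 17 cortex and 20 hippocampus libraries, and the highest library had 3 counts. Of the counts assigned to either copy it held 0.043% in cortex (exact binomial 95% interval 0.0266% to 0.0657%) and 0.0274% in hippocampus (0.0137% to 0.0489%). The transcripts of the 2 copies are identical in GENCODE vM21 (GRCm38), and how they stand in the build that was counted, GRCm39, was not checked. This split therefore cannot be read as the expression of 1 copy against the other, and the Entpd4b row may hold reads of both.

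Fgfbp3 encodes a carrier protein that binds fibroblast growth factors. It had no separate levels: in cortex it ran from 3.88 CPM through a median of 6.8 to 9.09, and in hippocampus from 5.03 through 8.59 to 11.1. Its counts, from 107 to 311 per library, give a counting error of 7.39% (cortex) and 6.78% (hippocampus) of the mean, beside a spread over libraries of 21.4% and 21.5%. The genotype medians in cortex were 6.1 CPM in wild type, 6.92 in Mrpl40 het, 7.99 in Slc25a1 het and 6.85 in double het, with overlapping ranges. Over 29 animals r between the tissues was 0.764 (Spearman's rho 0.778). Of 19463 genes, 73 had a higher r, and the median over all genes was 0.12.

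Grouped by the Ide level of the animal, Fgfbp3 came close to separating. In cortex it ran from 3.88 through 5.44 to 6.49 CPM in the 13 libraries low for Ide and from 6.12 through 7.57 to 9.09 in the 17 high for Ide, and 16 of the 17 were above every low library. In hippocampus the ranges were 5.03 through 6.61 to 8.59 and 6.4 through 9.47 to 11.1 CPM, with 14 of 16 above every low library. The ratio of medians was 1.39 in cortex and 1.43 in hippocampus. Within the Ide levels r between the 2 genes ran from -0.232 to 0.00806. With 13 to 17 libraries per level and the counting error of Fgfbp3, this cannot show whether the 2 genes track each other within a level.

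Btaf1, which encodes an ATPase that removes the TATA-binding protein from DNA, followed the same step. It ran from 29.9 through 34.9 to 40.6 CPM in cortex libraries low for Ide and from 36.7 through 45.6 to 55.3 in those high for Ide, a ratio of medians of 1.31. In hippocampus the medians were 37.7 and 45.1 CPM, a ratio of 1.2. Cpeb3, which lies between Btaf1 and Ide and encodes a regulator of mRNA translation, had medians of 63.4 and 62.2 CPM in cortex and 47.2 and 47.4 in hippocampus at the lower and upper Ide level. Within the lower and upper level, r between Cpeb3 and Ide was 0.687 and 0.745 in cortex and 0.422 and 0.722 in hippocampus. For Btaf1 it ran from -0.185 to 0.463. Such r was computed for a few chosen genes only. With no share over all genes beside it, it cannot show a link particular to these neighbours.

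The order of genes on chromosome 19 in GENCODE vM21 is Tnks2, Fgfbp3, Btaf1, Cpeb3, A330032B11Rik, March5, Ide, Rpl10-ps6, Kif11 and Hhex. Over 29 animals r with Ide was 0.81 in cortex and 0.726 in hippocampus for Fgfbp3, and 0.756 and 0.73 for Btaf1. For the 3 genes between Btaf1 and Ide it ran from -0.108 to 0.314. Outside this stretch Tnks2 gave 0.227 and 0.0367 and Kif11 0.358 and 0.226. Among genes with a place in the annotation used here, those with the highest r over all animals, the 2 levels together, were therefore not the nearest neighbours of Ide. A row without a symbol, ENSMUSG00000120174, singled out after its values were seen, had r = 0.819 and 0.817 with Ide at 0.112 to 1.59 CPM, and its place is not given in the annotation used here.

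**Figure D3:**
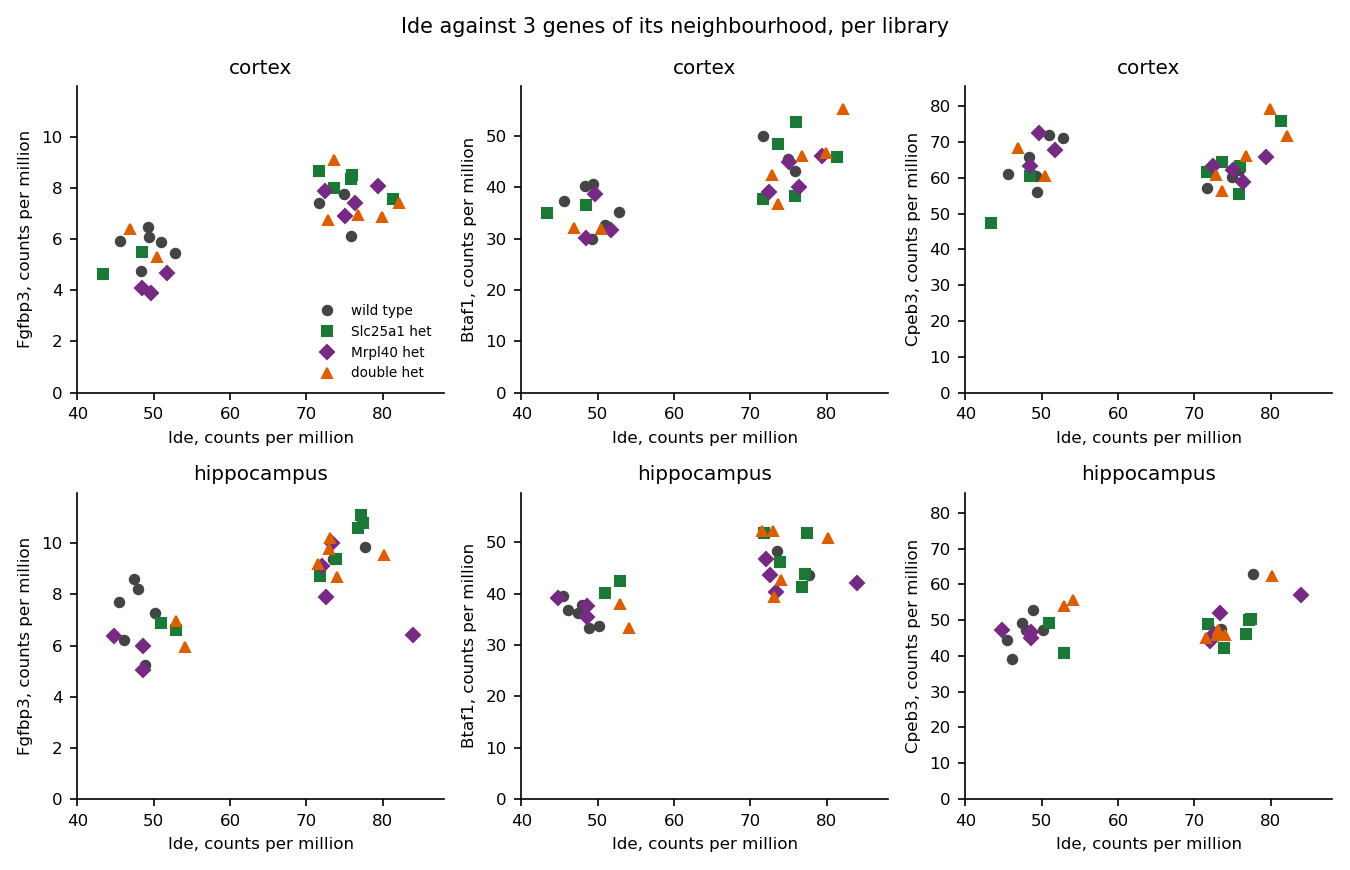
CPM of Ide (horizontal) against Fgfbp3, Btaf1 and Cpeb3 (vertical, from 0) in each library of cortex (top) and hippocampus (bottom), with labelled genotype by colour and shape. Fgfbp3 and Btaf1 sit higher where Ide is high, with cortex medians of 7.57 against 5.44 and 45.6 against 34.9 CPM, and Cpeb3 has 62.2 against 63.4.

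**Figure D4:**
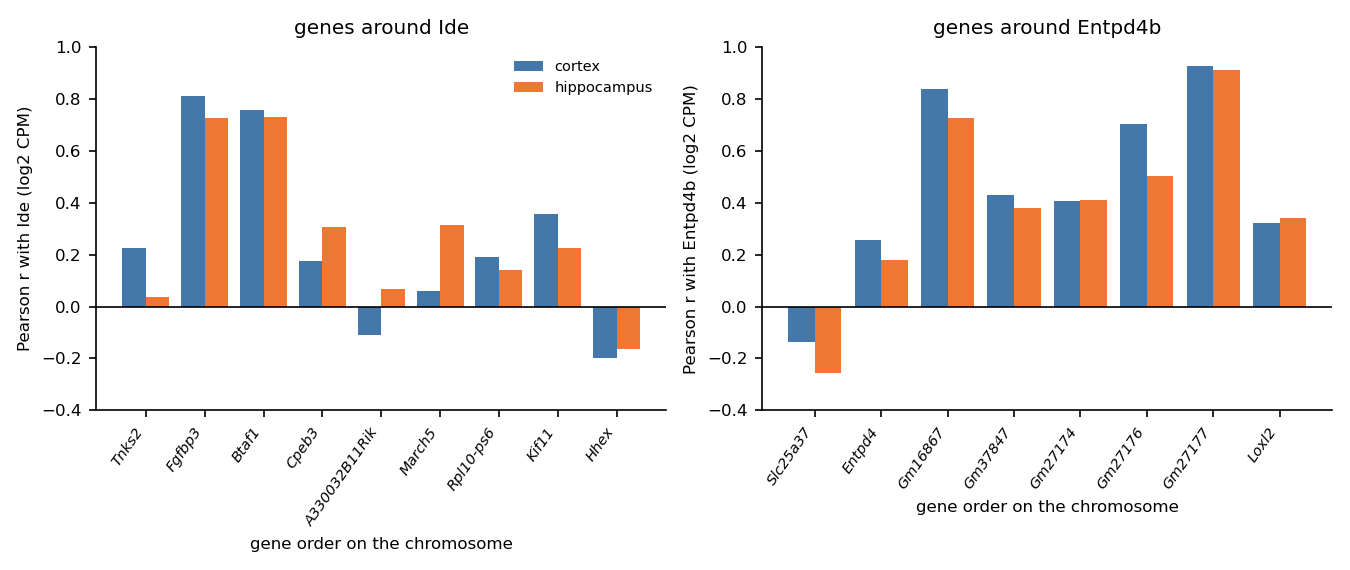
Pearson r of log2 CPM with Ide (left) and with Entpd4b (right) over 29 animals for the genes around each, in their order on the chromosome; blue bars are cortex and orange bars hippocampus. Around Ide the tallest bars are Fgfbp3 (0.81 and 0.726) and Btaf1 (0.756 and 0.73), and around Entpd4b the bars of Gm27177, at 0.926 and 0.913, are the tallest.

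By the same measure of likeness, the smaller of the 2 tissues' r, no gene tested in both tissues came near Wdfy1. The 3 nearest were Scrt2 (0.533 in cortex, 0.532 in hippocampus), Il4 (0.525 and 0.489) and Gm43597 (0.489 and 0.524), all on other chromosomes. The 3 nearest tested genes on each side of Wdfy1 on chromosome 1 had r from -0.248 to 0.209. For Entpd4b the second and the third after Gm27177, among genes tested in both tissues, were Tmem254a (0.529 and 0.486) and Gm21887 (0.483 and 0.464). Its chromosome 14 neighbours Gm16867 (0.84 and 0.727) and Gm27176 (0.705 and 0.502) had higher r than these. They were not tested in both tissues, with mean cortex levels of 0.395 and 0.332 CPM. After the genes named above, Ide was most like Gm18956 (-0.485 and -0.489), with the opposite sign, and Fgfbp3 like Rnf41 (-0.505 and -0.583).

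Crb1 encodes the Crumbs protein that sets up the apical side of epithelial and retinal cells. It was close to the limit of these libraries, with 8 to 65 counts each. In cortex it ran from 0.433 through 0.982 to 2.25 CPM and in hippocampus from 0.33 through 0.708 to 1.23. A gap of 0.26 log2 split the cortex libraries into 11 and 19, but the intervals on either side of it, 0.476 to 1.15 and 0.614 to 1.34 CPM, overlapped, and hippocampus had no such gap. Between the tissues r was 0.163 over 29 animals (rho 0.163), a value that 8234 of 19463 genes exceeded. It was 0.396 without the 6 animals whose Slc25a1 level went against the label, and 0.241 without the animal whose hippocampus library had high cerebellar markers. The counting error was 19.1% of the mean in cortex and 23.1% in hippocampus, and the spread over libraries 38.9% and 35.9%. Its pattern was most like those of Eif4ebp3 (0.56 and 0.559), Sra1 (0.572 and 0.514) and, with the opposite sign, Hr (-0.566 and -0.519). Medians by genotype in hippocampus were 0.778 CPM in wild type, 0.666 in Mrpl40 het, 0.831 in Slc25a1 het and 0.49 in double het, all with overlapping ranges.

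Cyfip2 encodes a subunit of the WAVE complex, which drives branching of actin filaments at synapses, and a partner of the fragile X protein. It was the most abundant of the 7 by counts, with 18702 to 44110 per library. In cortex it ran from 1160 through 1320 to 1460 CPM and in hippocampus from 830 through 974 to 1120, with a widest gap of 0.0342 log2 in cortex and 0.0622 in hippocampus. The spread over libraries was 5.97% of the mean in cortex and 8.66% in hippocampus, the narrowest of the 7. Over 29 animals r between tissues was 0.605 (rho 0.565), above the 95th percentile of all genes, 0.481, and below the 99th, 0.646. Its pattern was most like those of Sort1 (0.75 and 0.931), Dgke (0.761 and 0.769) and Akap6 (0.751 and 0.758). Cyfip2 did not follow the Ide level, with medians of 1350 and 1300 CPM in cortex libraries low and high for Ide.

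**Figure D5:**
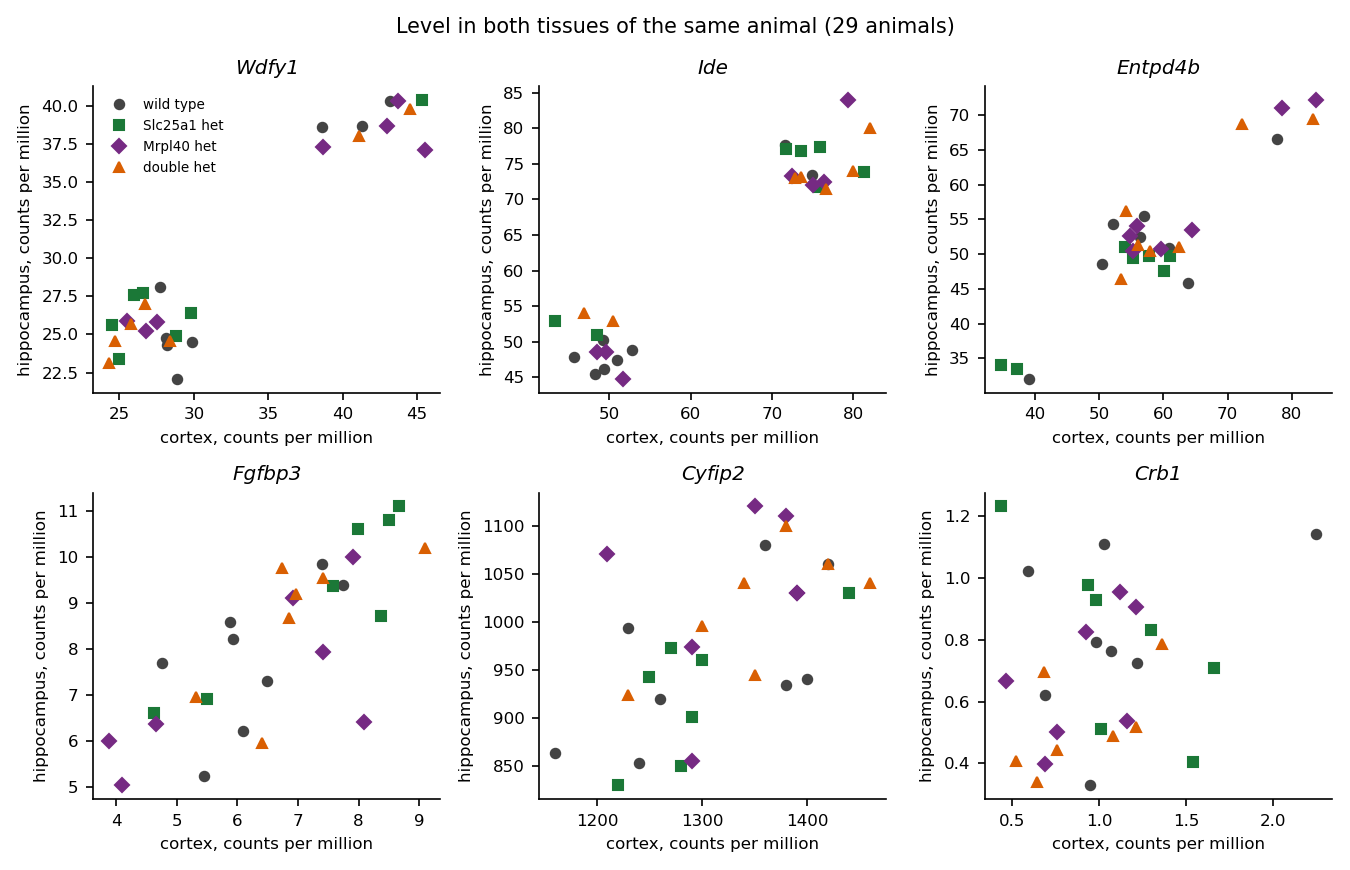
CPM in cortex (horizontal) against hippocampus (vertical) of the same animal for 6 genes, 29 points each, with labelled genotype by colour and shape; the axes do not start at 0. Wdfy1 and Ide form 2 separate clusters with every animal in the same one in both tissues, Fgfbp3 and Cyfip2 form a slope (r = 0.764 and 0.605), and Crb1 forms a scatter (r = 0.163).

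Genotype was tested with edgeR's quasi-likelihood test over all genes of a tissue, with Benjamini-Hochberg adjustment and a false discovery rate of 0.05. None of the 6 tested members was called in any of the 6 comparisons with wild type. Of all genes, 0% were called in cortex for Slc25a1 het, 0.0294% for Mrpl40 het and 0.0686% for double het, and in hippocampus 0%, 0.00496% and 0.00992%. At an unadjusted p under 0.05 there was 1 of the 6 members in the hippocampus of Slc25a1 het, beside 1567 of all 20162 genes, and 2 of the 6 in that of double het, beside 1064 genes. There was none in the other comparisons, where 646 to 2226 genes reached it. Ide had a log2 difference from wild type of 0.33 (SE 0.152) in hippocampus of Slc25a1 het, with an adjusted p of 0.616 from edgeR. In double het it was 0.32 (SE 0.152, edgeR adjusted p = 0.93), and these comparisons share the wild-type libraries. The counts of high animals, 2 of 8 wild type and 5 of 7 in each of those genotypes, stand beside these values. Crb1 had a log2 difference of -0.62 (SE 0.254, edgeR adjusted p = 0.906) in hippocampus of double het. In cortex the members' log2 differences ran from -0.25 for Crb1 in double het to 0.26 for Ide in double het.

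The difference between tissues was not used to choose the genes and was tested within animals. In hippocampus 5 of the 6 tested members differed from cortex, beside 77.4% of all 21354 genes tested. Of these, 4 were lower, beside 37.7% of all genes, and 1 was higher, beside 39.7%. By edgeR with the animal as a block, Cyfip2 was lower in hippocampus by 0.47 log2 (log2 fold change -0.47, SE 0.021, adjusted p = 7.1e-22) and lower in 29 of 29 animals. Crb1 was lower (-0.52, SE 0.123, edgeR adjusted p = 0.00022) in 24 of 29 animals. Entpd4b was lower (-0.20, SE 0.0227, edgeR adjusted p = 2.9e-10) and so was Wdfy1 (-0.14, SE 0.0215, edgeR adjusted p = 3.31e-07), each in 27 of 29 animals. Fgfbp3 was higher in hippocampus (0.27, SE 0.0415, edgeR adjusted p = 3.26e-07) in 25 of 29 animals. Ide differed by -0.04 log2 (SE 0.0195), lower in 18 of 29 animals, and did not pass (edgeR adjusted p = 0.0652). For Wdfy1, Ide and Entpd4b the step between levels was larger than the difference between tissues. These genes were chosen with their levels known, so nothing is concluded from this. Bulk tissue cannot tell fewer cells of a type from less RNA per cell.

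Genes that work with the 7 were taken from lists. In the comparisons of genotypes 0 members of any list were called, beside at most 0.0686% of all genes. Between tissues 39.7% of all genes were higher in hippocampus and 37.7% lower, and no list was tested against these shares. Between tissues, by edgeR at the same threshold, 8 of 14 tested partners of Cyfip2 in the WAVE complex and beside the fragile X protein were higher in hippocampus and 2 lower, with a median log2 difference of 0.21 beside 0.01 for all genes. Cyfip1, the paralog of Cyfip2, was higher by 0.86 log2, and so were the WAVE subunits Wasf1 (0.85), Abi1 (0.71) and Nckap1 (0.58). The fragile X gene Fmr1 (-0.23) and the small subunit Brk1 (-0.13) were lower. Among 13 genes of the Crumbs polarity complex 5 were higher and 7 lower, with a median of -0.21. Lin7a (-1.26) and Lin7c (1.09), scaffold proteins of 1 family, were at the ends, and Crb2, a paralog of Crb1, was lower (-0.21).

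The next counts too stand beside 39.7% of all genes higher in hippocampus and 37.7% lower. Among 9 relatives of Entpd4b and other enzymes that cleave nucleotides 4 were higher in hippocampus and 2 lower (median 0.08), among them Entpd6 (0.43) and Entpd7 (-0.47). Of 10 peptide-degrading proteases, the class of Ide, 4 were higher and 5 lower (median -0.12). These included the endothelin-converting enzymes Ece2 (0.66) and Ece1 (-0.80), and neprilysin, Mme (-0.19). Of 18 fibroblast growth factors, receptors and carriers, 9 were higher and 7 lower (median 0.09). The receptor Fgfr1 (1.47) was the furthest up, and the carrier Fgfbp1 (-2.02) was lower where Fgfbp3 was higher. Of 12 relatives of Wdfy1 and genes of Toll-like receptor signalling 7 were higher and 4 lower (median 0.14), with Ticam2 (0.72) and Traf3 (0.70) up and Wdfy4 (-0.75) down.

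Other loci known to differ between C57BL/6 substrains were read in the same libraries. Nnt, the mitochondrial transhydrogenase gene deleted in part in C57BL/6J, had 1 to 18 counts per cortex library (0.0347 to 0.672 CPM) and 2 to 16 per hippocampus library. Gabra2, a GABA-A receptor subunit with lower expression in C57BL/6J, ran from 95.6 to 163 CPM in cortex and from 228 to 289 in hippocampus. Mmrn1 had at most 3 counts and Nlrp12 at most 8 in any library, too few to describe. Dock2 ran from 2.9 to 6 CPM in cortex and from 3.16 to 5.46 in hippocampus.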

How the data were processed

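The authors deposited raw counts, 1 row per gene and 1 column per library. They also deposited signal values, which they call normalized counts. Within each library these were checked to be the counts over a constant (largest relative range 9.85e-10), and they served as an alternative. The submitters' processing notes name FastQC, HISAT2, featureCounts, DESeq2 and the build mm39 (GRCm39), and how strand and reads that match several places were counted was not given in the sources used here. Gene order came from GENCODE vM21 and promoters from RefSeq, both GRCm38. The build differs from that of the files, so these served for names, order and sequence. RefSeq gave promoters for 5 of the 7 genes.

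The members and lists were chosen with earlier results of these data known. Groups and animal numbers came from the labels. Counts were analysed with R 4.3.3 and its package data.table, version 1.17.8. CPM are counts scaled to 1000000 per library after TMM within a tissue, and log2 CPM used a prior count of 2. A separate level needed a gap of at least 0.25 log2 between neighbouring libraries in sorted order, with at least 3 libraries on each side. Genotypes were tested with the quasi-likelihood test of edgeR 4.0.16 (low-count filter, robust dispersion, all 4 genotypes of a tissue in 1 fit), and tissues with the animal as a block, at a false discovery rate of 0.05. Alternatives used DESeq2 1.42.0, other scalings, filters, gaps and libraries. Alternatives without 6 animals or 1 library for the levels, and without 1 animal for their agreement, were chosen after seeing the data. The fit for genotype and the rule for levels were tried on simulated cortex data, with outcomes not reported here. Agreement of the tissues was not simulated. The steps simulated for the rule lay in more libraries than the low group of Entpd4b. They lay in genes of small spread, above the levels of Crb1 and Fgfbp3. The rule was not tried on cases like those. Counting intervals are 95% intervals. Named genes were the 7, Slc25a1, Mrpl40, the 3 genes most like each (with a symbol and tested in both tissues), their neighbours, the substrain loci and list members past the test. Of the substrain loci 1 is not reported here. Btaf1, Cpeb3 and Gm27177 were described further after their values were seen. Figures used Python 3.11.15, numpy 2.4.6 and matplotlib 3.10.9.

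Whether the replicate numbers of the labels pair animals of different genotypes was checked over the 5000 genes with the highest mean level, as r of deviations from genotype means. In cortex same-number libraries had a median r of 0.126 (range -0.405 to 0.532), libraries of different number -0.0232, and 9 of 30 correlated best with their own number. In hippocampus the values were 0.0531 (range -0.455 to 0.527), 0.00985 and 3 of 29. Since r was not over 0.1 in every pair, the numbers were not taken as pairs. The tissues of 1 animal, with a median r of 0.12 (range -0.0354 to 0.437), did not meet this rule either. The check therefore cannot decide whether the replicate numbers pair animals of different genotypes. Cortex and hippocampus of 1 animal are paired by the animal number in the labels.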

Additional observations from a re-analysis of the deposited data

Results flagged for a closer look

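Of 56 sets of values (7 genes in 8 groups), 7 held a highest or lowest library far from the rest of its group by Dixon's criterion. Chance meets it in about 1 of 20 groups of normally spread values. Genes at 2 levels and rows of a few counts are not spread in this way, so the 7 cannot be set against that rate. Wdfy1 in the 7 Slc25a1 het libraries was 45.3 CPM in cortex of animal 15, next to 29.8, and 40.4 in hippocampus of the same animal, next to 27.7: it was the single animal of this genotype at the upper level. Crb1 in cortex of wild-type animal 2 was 2.25 CPM, next to 1.22. Cyfip2 in cortex of Slc25a1 het animal 10 was 1440 CPM, next to 1300. The other 3 were Entpd4 values of a few counts: 0.0375 CPM in cortex of Slc25a1 het animal 15, where the other libraries were at 0, 0.12 in cortex of double het animal 28, next to 0.0399, and 0.0412 in hippocampus of wild-type animal 4, where the others were at 0.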

How the results depend on the processing

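Wdfy1, Ide and Entpd4b kept their levels under other gaps and scalings, and 2 of the 3 did without the 6 animals whose Slc25a1 level went against the label. As deviations from genotype medians, which turn 2 levels into more, 1 of the 3 kept both levels on the same animals, and for Wdfy1 and Ide 31.03% of animals were on the same side. With 2 libraries on each side 21 genes in all had such levels. Pooled over the levels, r between tissues was 0.937 for Wdfy1, 0.946 for Ide and 0.914 for Entpd4b, and Spearman's rho 0.6709, 0.7271 and 0.5635. By Spearman's rho 5 of the 18 most alike genes were shared.

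No member was called for genotype in any alternative. A replicate block, with the replicate number as the block, was also tried, though the pairing check cannot decide whether it is called for. The log2 difference of Fgfbp3 in cortex of Mrpl40 het was then 0.0685 (main value -0.01). Calls over all genes went to 4 in cortex of double het. In hippocampus they went to 7 for Slc25a1 het, 0 for Mrpl40 het and 0 for double het. DESeq2's Wald test called 23 and 105 genes in cortex of Mrpl40 het and double het, and 11 and 8 in hippocampus. Without the filter 22 genes were called in cortex of double het, and in hippocampus 2 for Mrpl40 het and 1 for double het. DESeq2 size factors gave 2 calls in hippocampus of Mrpl40 het. With only the genotypes compared hippocampus gave 6 calls for Mrpl40 het and 1 for double het.

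Without the 6 animals whose Slc25a1 level went against the label, calls over all genes were 1 for Slc25a1 het and 2 for double het in cortex and 1, 0 and 1 in hippocampus. Entpd4b in double het then stood at -0.11 in cortex and -0.088 in hippocampus, against 0.12 and 0.15 before, Cyfip2 in cortex of Mrpl40 het at -0.022, and Crb1 in hippocampus of Slc25a1 het at 0.053. Without the library with high cerebellar markers Crb1 there stood at 0.084, and double het had 1 call. The cause was not tested.

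Between tissues, Wdfy1 was not called without the replicate block of animals (-0.14, edgeR adjusted p = 0.121), and Crb1 not in wild-type animals alone (-0.43, edgeR adjusted p = 0.0919). Ide was called with DESeq2 size factors in edgeR (-0.04, adjusted p = 0.0485) and by DESeq2 (adjusted p = 0.047). Depth limits Crb1, and the reading of Entpd4 is limited by the transcript sequence it shares with Entpd4b in the annotation used here.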
